A study of Mus musculus with 2 samples.

Results

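Epithelial cells hold each other through adherens junctions, tight junctions and adhesion molecules along their sides, and 10 genes of this machinery were followed through single cells of the mouse colon: Epcam, Cdh1, Cdh17, Cldn2, Cldn3, Cldn4, Cldn7, Cldn15, Ocln and Tjp1. They were chosen by symbol, and 9 of the 10 symbols were read from a count matrix of 19294 genes. Cldn4 was not analysed here. The genes are described across the 3 epithelial subclusters and the 4 clusters to which the study assigned its cells.

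In the study, colon cells of Tcf4 GfpCre/+ RosamTmG/+ mice on the C57BL/6 strain, aged 4 to 10 months, were sorted by reporter colour and profiled by Drop-seq, which captures the polyadenylated ends of transcripts in droplets and counts them by unique molecular identifier (UMI). The Tcf4 GfpCre allele is a knock-in that disrupts Tcf4 (Tcf7l2), a transcription factor of the Wnt pathway, so every cell profiled was heterozygous for it, and no cells with both Tcf4 copies were among the samples analysed here. Cells that kept the red reporter (Tcf4 Lin-, in which the Tcf4 promoter had not driven Cre) and cells carrying both colours (labelled DP, and called MIX in the study) came as 2 pools, samples 1-3 and 4-6, and were mixed with human cells to reach a workable concentration. The matrix holds both pools, and its barcodes carry the endings X1 or X2, which the labels tie to neither a pool nor a reporter colour. All cells therefore counted as 1 sample, there was no replicate and no test, and every interval given is a 95% interval that covers counting error only.

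Of 1117 barcodes, 516 were assigned to a cluster, with 504 to 23205 UMIs each and a median of 1126. The epithelial subclusters were called stem cells (32 cells, 69046 UMIs), secretory precursors (32 cells, 128664 UMIs) and absorptive precursors (42 cells, 151780 UMIs). Among these cells, 14 are listed as intraepithelial lymphocytes in the assignment of all cells, although they are in an epithelial subcluster, and they held 29.1% of the UMIs of the subclusters. The 409 lymphocytes in no subcluster comprised 187 natural intraepithelial lymphocytes (nIELs), 175 induced intraepithelial lymphocytes (iIELs) and 47 B cells, with 501895 UMIs. T cell markers (Cd3d, Cd3e, Cd3g, Cd247 and Cd7) had no UMI in stem cells or secretory precursors and 6 UMIs in absorptive precursors, against 1649 in nIELs. For its trajectory the study chose epithelial cells that held Pigr and lacked T cell markers. If the same filter made the subclusters, these T cell marker counts are fixed in part by it, so they are no independent sign of identity. The sum of 5 goblet cell markers was 61120 CPM (UMIs per 1000000 UMIs summed) for secretory precursors but 18611 for stem cells and 4447 for absorptive precursors. That of 4 absorptive markers was 5152 CPM for absorptive precursors but 1144 for stem cells and 987 for secretory precursors.

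Epcam encodes a cell surface glycoprotein of epithelia that binds and stabilizes claudins, above all claudin-7, and Cdh1 encodes E-cadherin, the calcium-dependent adhesion molecule at the core of adherens junctions. Cdh17 encodes LI-cadherin, an intestinal cadherin that does not need catenins for adhesion. The claudins form the strands of tight junctions: claudin-2 and claudin-15 make pores for small cations, while claudin-3 is regarded as a sealing claudin and claudin-7 lies largely along the lateral membrane. Occludin (Ocln) is another membrane protein of tight junctions, and Tjp1 encodes ZO-1, the scaffold that ties them to actin.

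The promoters of 3 members are shown because the results below turn on them: Epcam and Cldn7, the pair with the most UMIs and the most similar pattern, and Cldn2, which had the opposite order among the subclusters. Each run is the 250 bases before a RefSeq start site of GRCm38.p6, on the plus strand: chr17:87635729-87635978 for Epcam, chr11:69964529-69964778 for Cldn7 and chrX:139800558-139800807 for Cldn2. Capitals mark matches, on either strand, to 4 motifs. These are the E-box bound by Zeb and Snail factors, CACCTG, then the core bound by Grainyhead-like factors, ACCGGT, then the TATA box, TATAAA, and then a core bound by Cdx factors, CATAAA.
Epcam: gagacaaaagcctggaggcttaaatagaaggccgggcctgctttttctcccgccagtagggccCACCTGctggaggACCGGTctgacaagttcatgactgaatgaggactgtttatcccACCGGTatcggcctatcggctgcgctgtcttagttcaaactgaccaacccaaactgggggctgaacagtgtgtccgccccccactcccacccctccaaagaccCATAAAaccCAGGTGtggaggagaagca
Cldn7: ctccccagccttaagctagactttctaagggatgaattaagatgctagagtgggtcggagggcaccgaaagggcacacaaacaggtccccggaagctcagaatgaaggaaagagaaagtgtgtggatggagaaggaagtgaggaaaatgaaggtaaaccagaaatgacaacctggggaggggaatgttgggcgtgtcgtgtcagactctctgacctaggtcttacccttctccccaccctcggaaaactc
Cldn2: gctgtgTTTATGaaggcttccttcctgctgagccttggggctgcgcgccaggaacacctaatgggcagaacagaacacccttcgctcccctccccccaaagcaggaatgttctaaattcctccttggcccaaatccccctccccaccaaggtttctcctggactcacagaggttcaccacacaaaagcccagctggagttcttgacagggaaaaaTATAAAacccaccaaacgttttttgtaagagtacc
The Epcam window held the E-box 2 times, at -187 and -19 relative to the start site, the Grainyhead-like core 2 times, at -174 and -131, and the Cdx core at -28, each given by the first base of the match. The Cldn2 window held the TATA box at -35 and the Cdx core, on the other strand, at -244. The Cldn7 window held none of the 4, but RefSeq gives Cldn7 another start site, inside the gene at 69965421, whose window held the E-box 2 times, at -97 and -57. Of 32851 RefSeq promoter windows of the same length, 17.2% held the E-box, 1.86% the Grainyhead-like core, 12.4% the TATA box and 10.8% the Cdx core. A match describes the letters of the window only, and no binding was measured.

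The adhesion genes and claudins were higher in epithelial cells than in lymphocytes of the same sort by reporter colour. The clusters were themselves made from these counts, so the differences describe the cells and are not tests. The study called the cluster epithelial by its Epcam, Krt8 and Krt19, so the difference in Epcam is fixed in part by that naming. Taken over all 9 members, the summed level was 3843 CPM in the epithelial cells and 112 CPM in the lymphocytes. The median epithelial cell held UMIs of 3 members, and 7 epithelial cells held none, whereas 367 of 409 lymphocytes held none. Of the 9 members, 7 had the 20 UMIs required for a comparison, and all 7 were at least 2 times higher in epithelial cells, a fold reached by 23.6% of the 6172 genes compared. Their median fold was 51.2, which is the fold of Epcam itself, against a median of 0.945 over all genes compared.

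**Figure D1:**
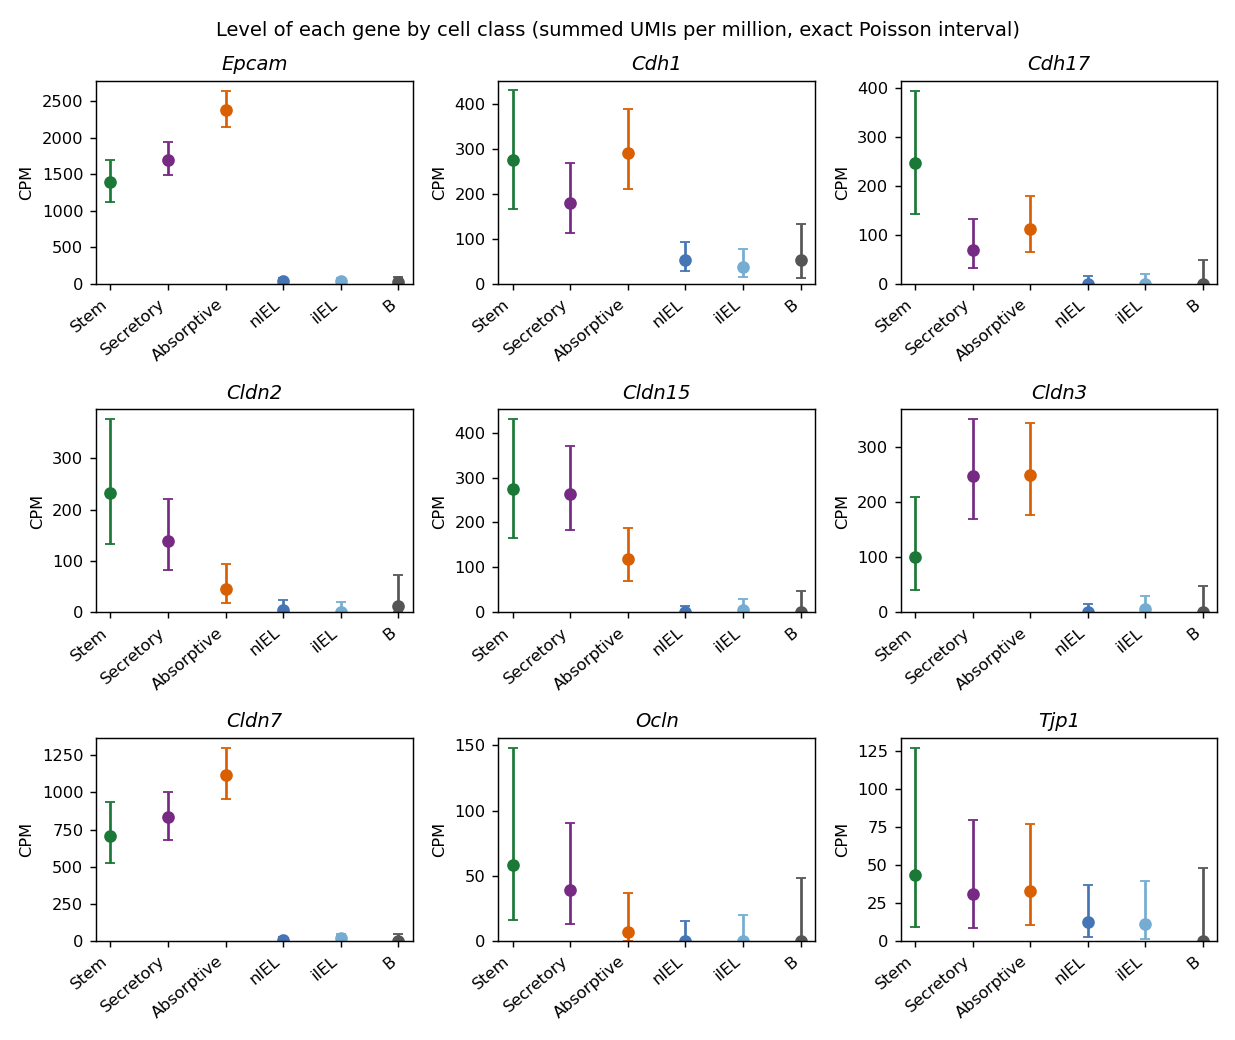
Level of each member in the 3 epithelial subclusters (stem cells, secretory precursors, absorptive precursors) and in the nIELs, iIELs and B cells that are in no subcluster; points are CPM on a linear axis of its own for each gene, and bars are exact Poisson 95% intervals. Epcam and Cldn7 were highest in absorptive precursors, at 2385 and 1120 CPM, Cldn2 ran from 232 CPM in stem cells to 46.1 CPM in absorptive precursors, and Cdh1 kept a level of 37.8 to 54.2 CPM in the 3 lymphocyte classes.

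Epcam (GRCm38, chromosome 17, 87635979 to 87651129, plus strand) had 677 UMIs in the epithelial cells, or 1937 CPM (1794 to 2089). A UMI of Epcam was found in 90 epithelial cells, or 84.9% (76.6% to 91.1%), at a median depth of 1606.5 UMIs. In lymphocytes it had 19 UMIs, or 37.9 CPM (22.8 to 59.1), and a UMI in 17 of 409 cells, at a median depth of 1067 UMIs. Epcam was thus 51.2-fold higher in epithelial cells (32.5 to 85.5), and low throughout the lymphocytes, at 41.7 CPM in nIELs, 37.8 CPM in iIELs and 26.1 CPM in B cells.

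The cadherins parted from each other. Cdh1 (chromosome 8, 106603351 to 106670246, plus strand) was at 246 CPM (197 to 304) in epithelial cells and at 47.8 CPM (30.6 to 71.2) in lymphocytes, a difference of 5.15-fold (3.24 to 8.46). Cdh17 (chromosome 4, 11758147 to 11817895, plus strand) was at 123 CPM (89.0 to 166) in epithelial cells and had no UMI in 409 lymphocytes, which by a floor of 3 counts allows a share of cells with a UMI of up to 0.733%. Against a floor of 3 UMIs over the lymphocytes, Cdh17 was 20.6-fold higher in epithelial cells, and the lower limit of its interval was 16.0-fold.

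Each claudin had at most 4 UMIs in lymphocytes. Cldn7 (chromosome 11, 69964779 to 69967885, plus strand), the claudin with the most UMIs, was at 933 CPM (834 to 1040) in epithelial cells and 7.97 CPM (2.17 to 20.4) in lymphocytes, or 117-fold higher (45.3 to 432). Cldn3 (chromosome 5, 134986214 to 134987472, plus strand) had 77 UMIs in epithelial cells and 1 in lymphocytes, a ratio of levels of 111 (19.3 to 4424). The end of Cldn3 overlaps the antisense gene Wbscr25, which had 4 UMIs in the whole matrix. Cldn15 (chromosome 5, 136966616 to 136975858, plus strand) had 71 UMIs in epithelial cells and 1 in lymphocytes, a ratio of 102 (17.7 to 4083). Cldn2 (chromosome X, 139800828 to 139811386, plus strand) had 41 and 2, a ratio of 29.4 (7.65 to 251). With 1 or 2 UMIs on the lymphocyte side, these intervals are wide, and the claudins cannot be ranked by them.

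Ocln and Tjp1 were thinly counted. Ocln (chromosome 13, 100496507 to 100552718, minus strand) had 10 UMIs in epithelial cells and none in lymphocytes. It was 4.79-fold higher against the floor of 3 UMIs, with a lower limit of 3.22-fold. Tjp1 (chromosome 7, 65296165 to 65527781, minus strand) had 12 UMIs in epithelial cells and 5 in lymphocytes, a ratio of 3.45 (1.13 to 12.5). Both were under the minimum of 20 UMIs, and no difference of either between subclusters was detectable at this depth.

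With the 4 clusters as the study listed them, the same 7 members were at least 2 times higher in the epithelial Pigr+ cluster (93 cells) than in the other 3 clusters, a fold reached by 19.2% of 6173 genes. The folds were smaller, from 2.81 for Cdh1 to 5.61 for Cldn2. The iIEL cluster carried most of the remainder: Epcam was at 1828 CPM in the epithelial cluster, 792 CPM in the iIEL cluster, 61.8 CPM in the nIEL cluster and 26.1 CPM in the B cell cluster. Cldn7 stood at 902, 366, 8.24 and 0 CPM in the same order. In the iIEL cluster, only 16 of 186 cells held a UMI of Epcam, and 11 cells of that cluster are also in an epithelial subcluster. The 14 subcluster cells listed as lymphocytes carried 223 of the 677 epithelial UMIs of Epcam (32.9%), and of the 7 compared members they carried between 26.8% (Cldn2) and 36.4% (Cldn3).

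Cdh1 stood out among the members by how much of it lay in lymphocytes. For every 100 UMIs in epithelial cells, lymphocytes held 27.9 UMIs of Cdh1 (17.0 to 44.3), 2.81 of Epcam (1.68 to 4.42), 1.23 of Cldn7 (0.332 to 3.17) and none of Cdh17 (up to 8.96). The intervals of Cdh1 and Epcam do not overlap. The same measure was 0.451 (0.216 to 0.830) for the sum of 7 epithelial markers and 0.163 (0.0931 to 0.265) for the sum of 5 goblet cell markers. Pigr, the receptor that carries IgA across the epithelium, was left out of the first sum because every epithelial cell held a UMI of it and it names their cluster, so that its own ratio of 0.364 is fixed in part by the choice of cells. The other markers were also among the counts that made the clusters, and the study called the cluster epithelial by Krt8 and Krt19, with Epcam. None of these ratios is therefore an independent reference. Tjp1 had the highest ratio, 41.7, but with an interval from 11.5 to 127 on 5 lymphocyte UMIs.

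**Figure D2:**
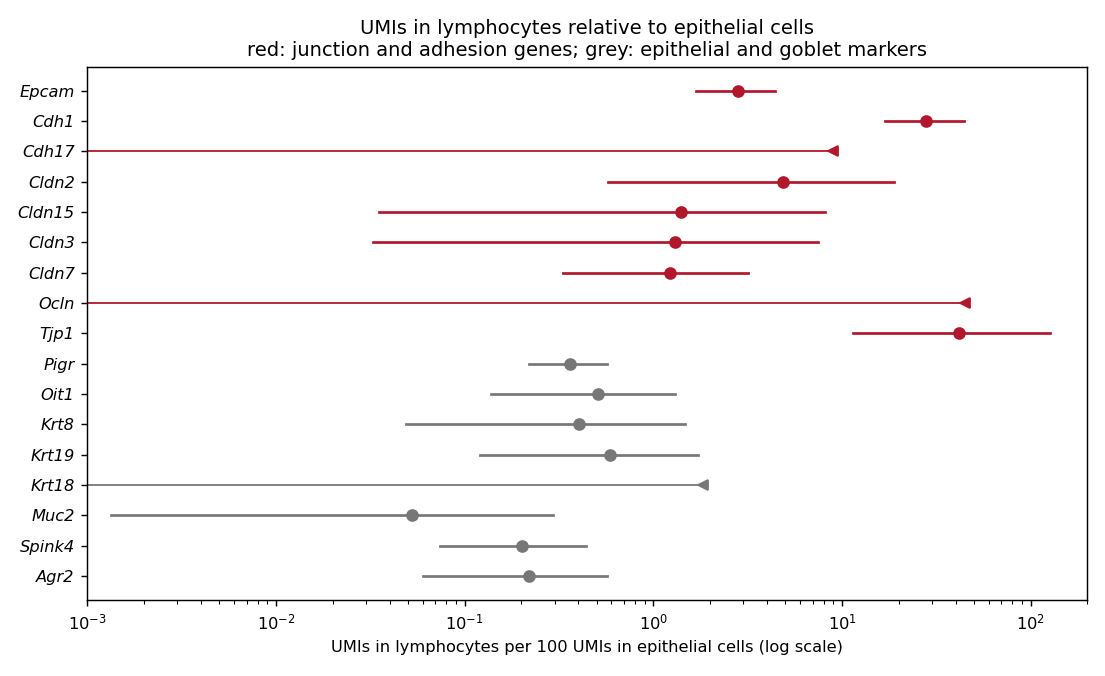
UMIs in the 409 lymphocytes for every 100 UMIs in the epithelial cells (log axis), for the members (red) and for epithelial and goblet cell markers (grey); points are ratios, bars exact 95% intervals, and an arrowhead with a line to the left edge gives the upper limit where lymphocytes had no UMI. Cdh1 lies at 27.9 and Epcam at 2.81; Pigr, at 0.364, was found in every epithelial cell and is no independent reference.

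The 24 Cdh1 UMIs of the lymphocytes were spread over 20 cells. Of these cells, 11 were nIELs, 6 iIELs and 3 B cells, and the level was 54.2 CPM (28.8 to 92.6) in nIELs, 37.8 CPM (15.2 to 77.9) in iIELs and 52.1 CPM (14.2 to 134) in B cells, so the lymphocyte classes were indistinguishable by their intervals. All 20 cells held a UMI of a T cell marker, as did 350 of the 389 lymphocytes without Cdh1, and none held a UMI of an epithelial or goblet cell marker, with an upper limit of 16.8%. Of those without Cdh1, 25 held such a marker UMI (6.43%). T cell markers also had 120 UMIs in the B cells, so a UMI of them alone does not mark a T cell. The median depth was 1133 UMIs with Cdh1 and 1064 without. Epcam was found in 17 lymphocytes, 3 of which held an epithelial or goblet marker UMI (17.6%), and 1 lymphocyte held both Cdh1 and Epcam. In set X1 the lymphocyte level of Cdh1 was 49.5 CPM (31.4 to 74.2), and in set X2, with 35 lymphocytes, it rested on 1 UMI. No annotated gene of GENCODE M21 overlaps Cdh1. The source of these UMIs was not tested.

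Among the subclusters, the members did not move as a block. Over all 9 members the summed level was 3331 CPM for the stem cells, with 3505 for the secretory and 4362 for the absorptive precursors. Over both barcode sets together, Epcam and Cldn7 were highest in absorptive precursors and Cdh17 was highest in stem cells. Cldn2 was higher in stem cells and secretory precursors than in absorptive precursors. Cldn3 was lowest in stem cells. Cldn15 was lowest in absorptive precursors, but not in X2 alone. Cdh1 was within counting error in all 3.

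Epcam was at 1390 CPM (1126 to 1698) in stem cells, 1702 (1484 to 1943) in secretory precursors and 2385 (2146 to 2644) in absorptive precursors. Absorptive precursors were 1.40-fold above secretory precursors (1.18 to 1.66) and 1.72-fold above stem cells (1.37 to 2.17), whereas secretory precursors and stem cells were within counting error, at a ratio of 1.22 (0.959 to 1.57). The share of cells with an Epcam UMI did not follow that order, at 81.2%, 87.5% and 85.7%, and thinned to 800 UMIs a cell it was 66.8%, 68.7% and 71.1%. The 1 deepest stem cell for Epcam held 36 of the 96 UMIs. Within both barcode sets Epcam was higher in absorptive precursors than in the other subclusters, by 1.46-fold (1.23 to 1.75) in X1 and 1.45-fold (1.02 to 2.06) in X2.

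Cldn7 followed the same order as Epcam, its partner at the lateral membrane. Its level was 710 CPM (525 to 938) in stem cells, 832 (682 to 1005) in secretory precursors and 1120 (958 to 1302) in absorptive precursors. A UMI of Cldn7 was found in 16 of the 32 stem cells, in 21 of the 32 cells of the secretory and in 30 of the 42 of the absorptive kind. Absorptive precursors were 1.35-fold above secretory precursors (1.05 to 1.73) and 1.58-fold above stem cells, with an interval above 1, while secretory precursors and stem cells were within counting error, at a ratio of 1.17 (0.828 to 1.68). Thinned to 800 UMIs, the share of cells with a Cldn7 UMI was 38.6% for stem cells, 35.7% for secretory and 55.5% for absorptive precursors. Against the other subclusters, Cldn7 in absorptive precursors was 1.42-fold higher in X1 (1.10 to 1.84) and 1.23-fold in X2 (0.717 to 2.07). The X2 interval includes 1.

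Over both barcode sets together the pore-forming claudins ran the other way, but Cldn15 had the opposite direction in X2, as given below. Cldn2 was at 232 CPM (132 to 376) in stem cells, 140 (82.9 to 221) in secretory precursors and 46.1 in absorptive precursors, where it rested on 7 UMIs in 6 cells. It was 5.02-fold higher in stem cells than in absorptive precursors (1.96 to 14.4), and 3.03-fold higher in secretory than in absorptive precursors (1.21 to 8.59), whereas secretory precursors and stem cells were within counting error, at a ratio of 0.604 (0.291 to 1.27). Thinned to 800 UMIs, the share of cells with a Cldn2 UMI was 17.0% for stem cells, with 14.7% for secretory and 2.27% for absorptive precursors, against 28.1%, 31.2% and 14.3% unthinned. Thinning left out 9 stem cells, 3 secretory and 6 absorptive precursors that were shallower. Cldn15 was at 275 CPM (166 to 430) in stem cells, 264 (183 to 369) in secretory precursors and 119 (70.3 to 187) in absorptive ones, and 1 stem cell held 9 of its 19 stem cell UMIs.

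Cldn3 was low in stem cells. Its level was 101 CPM (40.8 to 209) there, 249 (170 to 351) in secretory precursors and 250 (177 to 344) in absorptive precursors, and the precursors were 2.45-fold (1.06 to 6.59) and 2.47-fold (1.09 to 6.55) above stem cells. The stem cell level rested on 7 UMIs in 3 cells, 4 of them in 1 cell.

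Of the cadherins, Cdh17 had 17 UMIs in stem cells, or 246 CPM (143 to 394), against 69.9 (32.0 to 133) in secretory precursors and 112 (65.2 to 179) in absorptive precursors. Stem cells were 3.52-fold above secretory precursors (1.48 to 8.96) and 2.20-fold above absorptive precursors (1.05 to 4.58). Cdh1 was at 275 CPM (166 to 430), 179 (113 to 268) and 290 (211 to 389) in the same order, and none of its 3 pairwise ratios had an interval that left out 1.

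Counted by the fold of 2 against the other 2 subclusters, stem cells were higher in 2 of the 7 compared members, Cdh17 (2.66, 1.35 to 5.08) and Cldn2 (2.60, 1.30 to 5.06), and lower in 1, Cldn3 (0.406, 0.158 to 0.882). Cldn2 was under that fold without the 14 cells listed as lymphocytes (1.84) and with the CPM of single cells averaged (1.97). Of the 3013 genes compared, 13.1% were that much higher and 16.1% that much lower in stem cells. Secretory precursors were lower in 1 member, Cdh17 (0.454, 0.192 to 0.967), beside 18.0% of all genes, and higher in none, beside 9.16%. Cdh17 was under that fold in X1 alone (0.602, 0.228 to 1.44), without the 14 cells (0.628) and with averaged CPM (0.792). In X1 alone secretory precursors were higher in Cldn2 (3.06, 1.18 to 8.88) and Cldn15 (3.08, 1.54 to 6.47). Absorptive precursors were lower in 2, Cldn2 (0.268, 0.100 to 0.615) and Cldn15 (0.442, 0.244 to 0.768), beside 12.6% of all genes, and higher in none, beside 12.9%. Cldn15 fell short of that fold without the 14 cells listed as lymphocytes, while Cldn2 still passed it. These shares of the members lie within little more than 1 member of those of all genes.

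**Figure D3:**
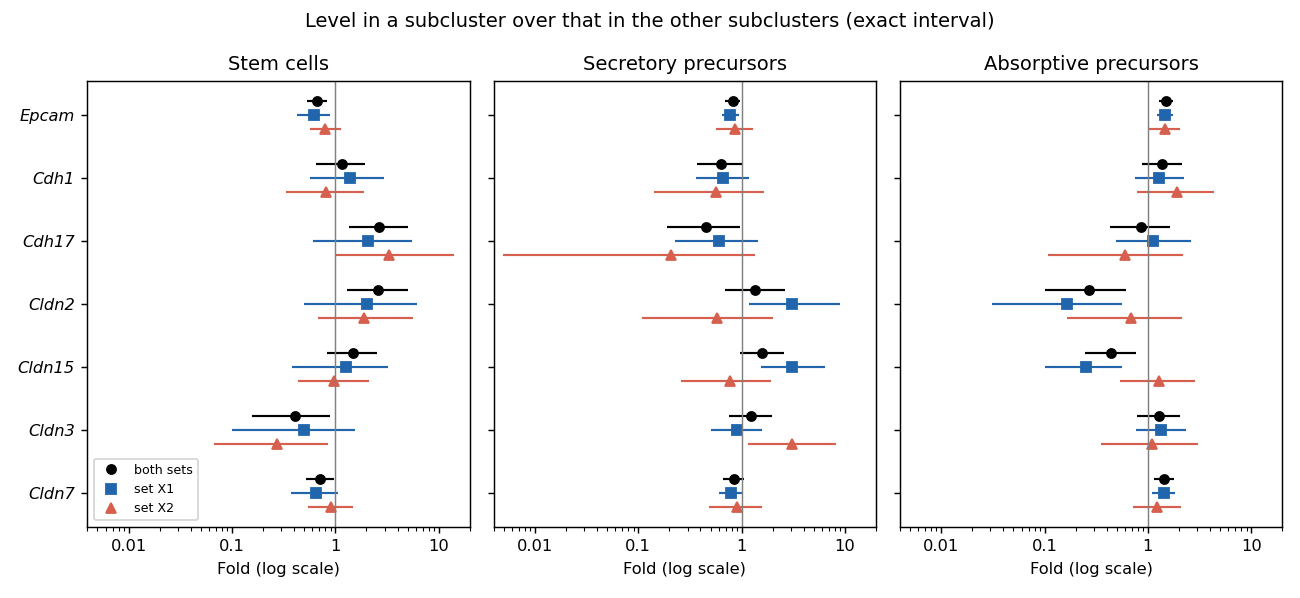
Level of 7 members in each subcluster over that in the other subclusters (log axis, 1 marks equal levels), for both barcode sets together (black circles) and for X1 (blue squares) and X2 (red triangles) alone; bars are exact 95% intervals. Epcam lies above 1 in absorptive precursors in both sets, at 1.46 and 1.45, while Cldn15 lies at 0.253 in X1 and 1.29 in X2.

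The barcode sets differed in the pore-forming claudins. In absorptive precursors, Cldn15 was at 63.3 CPM in X1 (34 cells) and at 393 CPM in X2 (8 cells). Against the other subclusters it was at 0.253 times their level in X1 (0.101 to 0.560) and at 1.29 times in X2 (0.539 to 2.88), so that the direction was opposite in X2. Cldn2 was at 0.165 times in X1 (0.0313 to 0.561) and 0.687 times in X2 (0.166 to 2.16). The difference between the sets was not tested. In stem cells Cldn3 had the same direction in both sets, at 0.503 times in X1 (0.101 to 1.55) and 0.275 times in X2 (0.0670 to 0.854). Cdh17 did too, at 2.06 times (0.609 to 5.57) and 3.30 times (1.00 to 14.1). Both X1 intervals include 1, and Cldn3 had 3 stem cell UMIs in X1. Cdh17 and Cldn2 were under the minimum of 20 UMIs in X2. Set X2 gave 15 stem cells, 4 secretory and 8 absorptive precursors, and 1 cell held 53.5% of the UMIs of its stem cells. It held 43357 of the 69046 UMIs of stem cells but 25471 of the 151780 of absorptive precursors. Cldn2 was at 156 CPM in X1 and 277 in X2 in stem cells, and at 23.8 and 157 in absorptive precursors. Ratios between subclusters over both sets, as for Cldn2, therefore mix set with subcluster.

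The 4 claudins were also set against each other, with UMIs summed over cells so that deep cells weigh most. Cldn2 and Cldn15 made up 35 of 91 claudin UMIs in stem cells, or 38.5% (28.4% to 49.2%), 52 of 191 in secretory precursors, or 27.2% (with an interval up to 34.1%), and 25 of 233 in absorptive precursors, or 10.7% (7.07% to 15.4%). The interval of the absorptive precursors lies below both others. Without the 14 cells listed as lymphocytes the shares were 34.7%, 27.8% and 12.0%, and without the deepest cell of each subcluster 34.5%, 27.6% and 12.9%. In X1 alone they were 31.0%, 27.6% and 5.79%, and in X2 alone 41.9%, 25.7% and 32.6% (19.1% to 48.5%), so that absorptive precursors were not the lowest in X2. UMIs of 1 cell are not independent of each other, and these intervals do not cover the spread between cells.

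**Figure D4:**
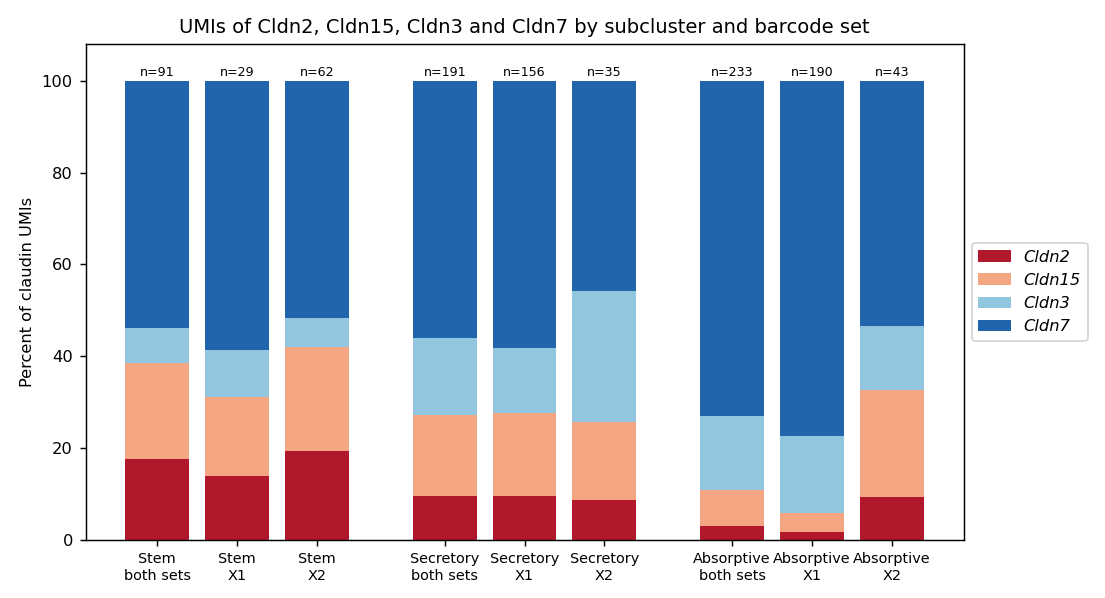
Percent of the UMIs of 4 claudins that came from Cldn2, Cldn15, Cldn3 and Cldn7 in each subcluster, for both barcode sets and for X1 and X2 alone, with the number of claudin UMIs above each bar. Cldn2 and Cldn15 together fill 38.5% of the stem cell bar and 10.7% of the absorptive precursor bar for both sets, and 5.79% and 32.6% of the absorptive bars for X1 and X2.

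Patterns of single genes were compared with those of the members over 12 cell groups (6 cell classes in 2 barcode sets), by Pearson's r of log2(CPM + 50) among 2853 genes. The groups share libraries and most of the contrast lies between epithelial cells and lymphocytes, so r is a description. Closest to Epcam were Cldn7 (r = 0.995), Klf5 (0.991), Pigr (0.990), Ceacam1 (0.989) and Muc13 (0.986). Closest to Cldn7 were Klf5 (0.996) and Epcam. Cldn15 was most like Krt18 (0.970) and Mptx1 (0.969). Cdh1 differed from these, with the mitochondrial gene mt-Nd2 (0.991) and Gm13341 (0.977) as its nearest, which had 509 and 231 UMIs in lymphocytes.

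The other genes of the junctions were also higher in epithelial cells than in lymphocytes. Of all 6172 genes compared, 23.6% were at least 2 times higher, and the median fold was 0.945. Of 9 further tight junction genes with 20 UMIs, 8 were at least 2 times higher and none lower, with a median fold of 17.2. Tjp3, the scaffold ZO-3, was 27.8-fold higher (9.04 to 139). F11r (the adhesion molecule JAM-A) was at least 15.8-fold higher and Cxadr, the coxsackievirus and adenovirus receptor, at least 15.3-fold higher, since neither had a UMI in lymphocytes. All 7 adherens junction genes compared were higher, with a median fold of 10.1. Among them Ctnnb1 (β-catenin) was 9.10-fold higher (4.92 to 18.4), Ctnna1 (α-catenin) 6.52-fold (3.53 to 13.0) and Mllt4 (afadin) 10.1-fold (4.53 to 26.3).

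Of 5 desmosome genes, 4 were higher and none lower, where 23.6% of all genes compared were higher. Dsg2, a desmosomal cadherin, had 83 UMIs in epithelial cells and 1 in lymphocytes, a ratio of levels of 119 (20.8 to 4764). Dsp (desmoplakin) was at least 22.5-fold higher, and Dsc2, another desmosomal cadherin, had 23 UMIs in epithelial cells and none in lymphocytes. Of 6 genes of adhesion to the matrix, 5 were higher, among them the tetraspanin Cd9 by 12.7-fold (7.14 to 24.6) and the integrin subunit Itga6 by 9.57-fold (4.03 to 27.6). The integrin subunit Itgb1, which lymphocytes also use, was 2.24-fold higher (1.41 to 3.61). All 4 other surface adhesion genes were higher, led in UMIs by Ceacam1, an adhesion molecule of the immunoglobulin superfamily (73.0-fold, 35.1 to 183), then Tspan8 (103-fold, 27.9 to 856) and Gpa33 (at least 37.8-fold).

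Epcam is protected from cleavage by the protease matriptase (St14) through the inhibitors Spint1 and Spint2. All 3 of St14, Spint1 and Spint2 were higher in epithelial cells, beside 23.6% of all genes compared. Spint2 was 13.7-fold higher (9.08 to 21.6), Spint1 22.0-fold (7.08 to 111) and St14 5.27-fold (2.07 to 15.9). All 6 epithelial transcription factors compared were higher, among them Klf5 by 70.0-fold (26.9 to 260). Ehf and Cdx1 had no UMI in lymphocytes. Against the floor of 3 UMIs they were 68.0-fold and 53.6-fold higher, with lower limits of 54.6-fold and 42.9-fold. The repressors of Cdh1, Zeb1 and Zeb2, had the opposite distribution, each with 21 UMIs in lymphocytes and none in epithelial cells. By the floor of 3 UMIs the epithelial level was 0.205 times that of lymphocytes, with an upper limit of 0.276 times. The integrin that binds E-cadherin on intraepithelial lymphocytes is formed by Itgae and Itgb7. Itgae had a UMI in 76 of 409 lymphocytes (18.6%) and in no epithelial cell, and Itgb7 had one in 109 lymphocytes (26.7%) with 1 UMI in epithelial cells. Klrg1, an inhibitory receptor that also binds E-cadherin, had 12 UMIs in lymphocytes and none in epithelial cells.

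Between subclusters, fewer genes of these lists passed the fold of 2. In absorptive precursors 12.9% of all genes were higher and 12.6% lower by this fold. None of 8 tight junction, 7 adherens junction or 6 matrix adhesion genes passed it there in either direction. Of 4 desmosome genes 1 was higher, with a median of 1.69 beside 1.08 over all genes. In secretory precursors none of these genes was higher, beside 9.16% of all genes. There 3 of 7 adherens junction genes, 2 of 4 desmosome genes and 1 of 8 tight junction genes were lower, beside 18.0% of all genes. In the secretory precursors Mllt4 was at 62.2 CPM, beside 304 for stem cells and 132 for absorptive precursors, on 49 UMIs over the epithelial cells. Dsp was at 69.9 CPM on 9 UMIs (32.0 to 133), beside 217 (122 to 358) and 152 (96.1 to 227), and these intervals overlap. In stem cells 1 of 7 adherens junction genes was higher and none lower, 1 of 8 tight junction and 1 of 4 desmosome genes were lower and none higher, and 1 of 6 matrix adhesion and 1 of 4 other surface genes passed in each direction, beside 13.1% of all genes higher and 16.1% lower. Dsc2 was at 14.5 CPM there, beside 46.6 for secretory and 105 for absorptive precursors, on 1, 6 and 16 UMIs. Its stem cell interval, 0.367 to 80.7 CPM, overlaps those of both precursors. Klf5 was nearly level, at 565, 552 and 560 CPM in the same order.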

How the data were processed

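The study's colon cells were sequenced as Drop-seq libraries. Per the labels and the study's methods, the authors processed the reads with the McCarroll pipeline, with STAR 2.5.0, Picard 1.137 and the builds mm10 and hg19 listed in the submitters' processing notes. The deposited table holds counts of UMIs for 19294 mouse genes in 1117 barcodes (1023641 UMIs), not normalized. Cluster names came from the authors' cell lists, 601 barcodes without one were left out, and no barcode was in both sets. UMIs were summed over cells and divided by the total to give CPM; a UMI marks one transcript end, so no length scaling was applied. Intervals are exact Poisson (CPM), exact binomial on the UMIs (folds) or Clopper-Pearson (shares), at 95%. Genes needed 20 UMIs over the cells compared, and a fold of at least 2 or at most 0.5 counted. With 1 sample there was no test and no p-value. No doublet caller was run, and 5 cells with markers of both kinds were left out in an alternative. Fold and interval were run on simulated Poisson counts with known folds. These counts had no spread between cells, so the run checked the calculation only. The members and lists were chosen with earlier results of these data known. All members were named, with the 3 genes of most epithelial UMIs from each other list and all receptors of E-cadherin. The claudin shares and the lymphocyte ratio were chosen after their values were seen. Alternatives covered the level, totals, barcode sets, doubtful cells, related barcodes, thinning, the minimum and the fold. Of the matrix's symbols, 18604 were in GENCODE M21. Python 3.11.15, numpy 2.4.6, scipy 1.17.1 and pandas 2.3.3 were used. The genes nearest to Cldn3 in pattern are not reported here.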

Additional observations from a re-analysis of the deposited data

Results flagged for a closer look

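Members also had UMIs in the 601 barcodes that were assigned to no cluster and entered no comparison, above the limit that a count of 0 allows. These barcodes had a median of 212 UMIs, and 36.8% of their UMIs were mitochondrial against 3.83% in assigned cells. Epcam had 55 UMIs there, or 320 CPM (241 to 417), in 38 barcodes. Cldn7 had 27 UMIs, or 157 CPM (104 to 229), and Cdh1 had 17 UMIs, or 99.0 CPM (57.7 to 158). Cldn3 had 8 UMIs and Cdh17 had 7 UMIs, while Cldn2 and Cldn15 had 2 each, under the limit of 3. Epithelial markers had 1152 UMIs in the same barcodes and T cell markers 302. The source of these UMIs was not tested.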

How the results depend on the processing

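No paired analysis was possible because all cells formed 1 sample with no groups that share replicate numbers. Over all settings, 263 folds of members stayed within their interval, 16 moved out of it and 1 reversed, and the 7 members past the fold between epithelial cells and lymphocytes had the same count in X1 alone and 5 in X2 alone, where 5 reached the minimum. Shares of cells with a UMI moved more often: 16 of 27 when thinned to 800 UMIs, 18 of 54 when thinned to 700, 30 of 54 when 2 UMIs were required and 23 of 54 in X2 alone. The reversal was Cldn15 in absorptive precursors, at 1.29 in barcode set X2 alone. In X2 alone the counts of members past the fold were 4 for the epithelial Pigr+ cluster (7 with both sets, with fewer members reaching the minimum), 1 for stem cells (3) and 0 for absorptive precursors (2). The count for absorptive precursors was also lower without subcluster cells listed as lymphocytes, where Cldn15 fell short of the fold. The count for secretory precursors, 1, was 2 in X1 alone, 0 when the CPM of single cells were averaged, 0 without subcluster cells listed as lymphocytes and 3 with a fold of 1.5. In X1 alone Cldn2 and Cldn15 were 3.06-fold and 3.08-fold higher in secretory precursors, and in X2 alone Cldn3 was 3.09-fold higher there. Apart from the fewer members tested, the cause was not tested. Joining barcodes that differ at 1 base (516 to 493 cells) and leaving out 337 mitochondrial and ribosomal protein genes from the totals moved no fold out of its interval. The claudin shares, with alternatives chosen after seeing the data, are given by set in the text. Depth limits Ocln, Tjp1 and every claudin in lymphocytes, where 0 to 5 UMIs were counted.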
